A study of Mus musculus with 6 samples.

Results

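The TNF family genes described here were 10 ligands and receptors of the tumour necrosis factor superfamily. They were listed by name and matched by symbol, through the platform annotation, to the deposited array values of a mouse macrophage study, with 1 probe set per gene. A match was found for 8 of the 10 genes, among 19505 genes measured in all: the ligand genes Tnf and Tnfsf13b, and the receptor genes Tnfrsf1a, Tnfrsf1b, Tnfrsf12a, Tnfrsf10b, Fas and Tnfrsf21. Tnfsf12 and Tnfsf13 were not analysed here. The cells were RAW264.7, a murine macrophage line, kept for 3 days on modified PEEK or on pristine PEEK, with 3 arrays for each surface. PEEK is polyetheretherketone, a polymer used for bone implants. The labels do not say how the PEEK was modified, and name no other treatment for either surface. RAW264.7 is 1 clonal tumour line, so other cell types of an implant site were not present by design. All values are log2 signals, and changes are modified minus pristine PEEK.

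TNF superfamily ligands are mostly membrane proteins that act as trimers, on the cell that makes them or after being cut free. Their receptors include some with a death domain, which can start caspase signalling, and some that recruit TRAF adaptors and turn on NF-kB. Macrophages are a main source of TNF and also respond to it.

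The macrophage markers Lyz2 (12.03 ± 0.02 on modified PEEK and 11.95 ± 0.02 on pristine PEEK; SD, n = 3 each), Spi1 and Csf1r gave some of the highest signals. Of 8 measured macrophage markers, 2 rose (Adgre1 and Mertk) and 2 fell (Itgam and Fcgr1) by limma. That is 50% of them, beside 10.4% of all genes. The arrays of the surfaces were fully separated for all 8, as for 28.8% of all genes. Mertk was the 1 marker below background on both surfaces. Background was set at 3.72, the 95th percentile of 1412 odorant and pheromone receptor genes, most of them silent outside sensory neurons. All genes include 6276 below background on both surfaces, and with these left out 2660 of 13229 genes passed by limma. Of 18 measured markers of T, NK and B cells, fibroblasts and neutrophils, 12 lay below background on both surfaces and 0 passed the test by limma (3 had an unadjusted p under 0.05). The summed signals of these 18 markers ran from 61.1 to 64.5 on modified PEEK and from 60.3 to 64.9 on pristine PEEK. All 8 TNF family genes lay above background, between 4.78 and 10.04. Nothing in the labels ties the 3 arrays to separate cultures. Each p-value therefore reflects array-to-array spread alone, which may be technical.

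Of the 8 genes, 3 fell on modified PEEK, Tnf, Tnfrsf12a and Tnfrsf10b, and 0 rose, with a median change of -0.20 against 0.01 over all genes. A gene was called at an adjusted p under 0.05 (limma, Benjamini-Hochberg over all genes). The same rule called 10.4% of all genes, 5.24% as higher and 5.15% as lower. With genes below background on both surfaces left out, 2660 of 13229 genes passed, and of the 8 genes 3 were lower and 0 higher. At an unadjusted p under 0.05 the counts were also 0 higher and 3 lower. Arrays of the surfaces were fully separated for the same 3 genes, as they were for 28.8% of all genes. The largest difference was that of the TRAIL receptor gene Tnfrsf10b. Both TNF receptor genes stayed within 0.02 of equality on the log2 scale.

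**Figure D1:**
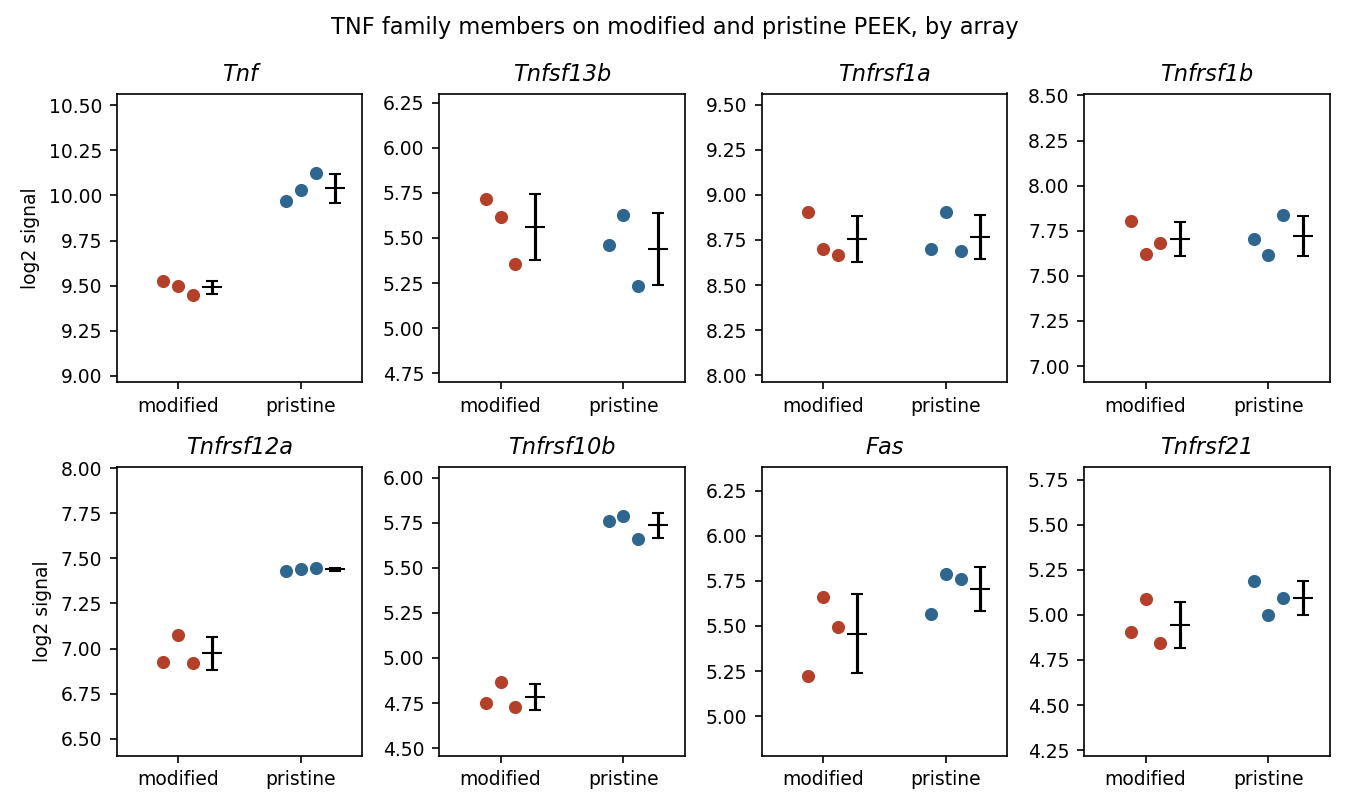
Log2 signal (y axis) of the 8 measured TNF family genes on each array, with modified PEEK (red) left of pristine PEEK (blue); the black bars are means and SDs of 3 arrays, and every panel spans the same height. Tnf, Tnfrsf12a and Tnfrsf10b show 2 separate groups, and the other 5 genes overlap between surfaces.

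Among the ligands, Tnf, which encodes the founding cytokine of the family, gave signals of 9.52, 9.50 and 9.45 on modified PEEK, against 9.97, 10.03 and 10.12 on pristine PEEK. Every modified PEEK array lay below every pristine PEEK array, with a gap of 0.44 between the groups. The change was -0.55 ± 0.09 (SE; 95% interval -0.76 to -0.34), a 1.46-fold lower signal (limma adjusted p = 0.00696). In such bulk RNA, fewer cells expressing a gene and less RNA per cell cannot be told apart. Leaving out any 1 of the 6 arrays kept the call, with an adjusted p between 0.0168 and 0.0424. Scaled to the poly-A spikes, the change of Tnf was -0.30 (limma adjusted p = 0.225). That scaling shifts the changes of all genes by the same amount, and moved their median to 0.26. The distance of Tnf from that median, -0.56, is therefore the same with and without it and is no separate result.

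Tnfsf13b encodes BAFF, a B cell survival factor made by myeloid cells. Its signals were 5.71, 5.61 and 5.36 on modified PEEK, against 5.46, 5.63 and 5.23 on pristine PEEK, and the groups overlapped. The difference was 0.12 (95% interval -0.20 to 0.44; limma adjusted p = 0.685). The BAFF receptor genes Tnfrsf13c (4.81 ± 0.14 on modified PEEK and 4.76 ± 0.09 on pristine PEEK) and Tnfrsf13b (4.27 ± 0.13 and 4.14 ± 0.16, in the same order; SD, n = 3 each) did not pass either. Another BAFF receptor gene, Tnfrsf17, rose (limma adjusted p = 0.00518) and is described below.

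Neither receptor gene of TNF itself passed the test. Tnfrsf1a encodes the widely expressed receptor with a death domain, and gave 8.90, 8.70 and 8.67 on modified PEEK, against 8.70, 8.91 and 8.69 on pristine PEEK. Tnfrsf1b encodes the second receptor, which has no death domain and is common on leukocytes. Its signals were 7.80, 7.62 and 7.68 on modified PEEK, against 7.70, 7.62 and 7.84 on pristine PEEK. For both genes the groups overlapped over almost their whole range. The 95% interval of the difference was -0.26 to 0.25 for Tnfrsf1a and -0.25 to 0.22 for Tnfrsf1b, which leaves room for differences of up to about that size in either direction (limma adjusted p = 0.977 and 0.950).

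Tnfrsf12a encodes Fn14, the small receptor of the cytokine TWEAK. Its signals were 6.92, 7.08 and 6.92 on modified PEEK, against 7.43, 7.44 and 7.45 on pristine PEEK. The pristine PEEK arrays lay within 0.02 of each other, and all were above the modified PEEK arrays. The gene fell by 0.47 ± 0.09 (SE), which is 1.38-fold lower (limma adjusted p = 0.0149). This call was lost without modified PEEK replicate 3 (adjusted p = 0.0582) and without pristine PEEK replicate 1 (0.0566), 2 (0.0615) or 3 (0.0679), while the change stayed between -0.52 and -0.44. It was also lost with the replicate number as a block (adjusted p = 0.0608) and with the arrays scaled to the poly-A spikes (-0.22, adjusted p = 0.384).

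Of the death receptors, Tnfrsf10b encodes the mouse receptor of the apoptosis-inducing ligand TRAIL. Its signals were 4.75, 4.86 and 4.73 on modified PEEK, against 5.76, 5.79 and 5.66 on pristine PEEK. The gap between the groups was 0.79, several times the SD of 0.07 in each of them. The gene fell by 0.95 ± 0.09 (SE; 95% interval -1.17 to -0.74), which is 1.94-fold lower (limma adjusted p = 0.000586). Its call held under all 19 alternatives, with an adjusted p of 0.0217 at most and changes between -0.99 and -0.71. The gene of the ligand, Tnfsf10, lay below background on both surfaces, at 2.73 ± 0.13 on modified PEEK and 2.89 ± 0.14 on pristine PEEK (SD, n = 3 each).

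The other death receptor genes did not pass. Fas, whose product triggers apoptosis on binding Fas ligand, gave 5.22, 5.66 and 5.49 on modified PEEK, against 5.57, 5.79 and 5.76 on pristine PEEK. Modified PEEK replicate 1 was the lowest array, and the groups overlapped (difference -0.25, 95% interval -0.55 to 0.06; limma adjusted p = 0.331). Fasl, the gene of its ligand, lay below background on both surfaces. Tnfrsf21, which encodes death receptor 6, gave 4.91, 5.09 and 4.84 on modified PEEK, against 5.19, 5.00 and 5.09 on pristine PEEK. These groups overlapped too, with a difference of -0.15 (95% interval -0.39 to 0.10; adjusted p = 0.481).

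The sequence before the start of the gene was available for 7 of the 8 genes, in RefSeq's GRCm38.p6 tables. The 250 bases before the start are shown for Tnf and Tnfrsf12a, which fell, and for Tnfrsf1a, one of the genes that did not pass. They are written 5′ to 3′ along the gene's strand, with matches to the TATA box TATAAA and the GC box GGGCGG, on either strand, in capitals. The windows are chr17:35202008-35202257 on the minus strand for Tnf, chr17:23677450-23677699 on the minus strand for Tnfrsf12a and chr6:125349473-125349722 on the plus strand for Tnfrsf1a.
Tnf: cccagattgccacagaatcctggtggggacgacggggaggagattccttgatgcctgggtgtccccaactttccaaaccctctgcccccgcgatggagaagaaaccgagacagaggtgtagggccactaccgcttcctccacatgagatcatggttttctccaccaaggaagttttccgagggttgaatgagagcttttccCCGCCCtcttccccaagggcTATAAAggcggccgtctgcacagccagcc
Tnfrsf12a: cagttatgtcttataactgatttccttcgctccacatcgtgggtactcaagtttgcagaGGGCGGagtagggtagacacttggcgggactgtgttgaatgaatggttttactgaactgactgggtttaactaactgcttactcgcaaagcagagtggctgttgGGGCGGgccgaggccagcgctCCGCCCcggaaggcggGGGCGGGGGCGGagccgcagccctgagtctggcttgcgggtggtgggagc
Tnfrsf1a: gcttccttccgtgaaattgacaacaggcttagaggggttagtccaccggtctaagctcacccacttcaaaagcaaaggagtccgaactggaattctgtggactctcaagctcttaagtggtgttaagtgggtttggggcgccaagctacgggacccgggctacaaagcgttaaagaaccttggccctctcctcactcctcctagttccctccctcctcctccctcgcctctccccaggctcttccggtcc
Tnf has 1 TATA box, 29 to 24 bases before the start, and 1 GC box. Tnfrsf12a has 5 GC boxes and no TATA box, and the Tnfrsf1a window holds neither. GC boxes also stand before genes that did not pass, with 2 for Tnfrsf1b, 1 for Tnfrsf21 and 1 for Fas. Among all 32851 promoter windows of this length, 12.4% hold the TATA box and 32.7% the GC box. The same search covered the NF-kB consensus and the AP-1 motif TGANTCA, on both strands. The first was in 3.90% of all windows and in none of those of the 7 genes. The AP-1 motif was in 6.75% of all windows, in that of Fas, and in the one at the second of the 2 listed starts of Tnfsf13b. None of these motifs overlapped in the windows shown. A match, or its absence, describes letters in these 250 bases only, and sites further from the start were not searched.

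Across the rest of the superfamily, 35 of 36 other ligand and receptor genes were measured, and 5 fell and 1 rose (limma; 6 lower and 2 higher at an unadjusted p under 0.05). Their median change was 0.01. The genes that fell were the costimulatory receptor gene Cd40, Eda2r, Tnfrsf23, Tnfrsf26 and the ligand gene Tnfsf9, and Tnfrsf17 was the gene that rose. Among the measured ligands of these 35, 7 of 14 lay below background on both surfaces, and so did 1 of the 21 receptors. With the 8 genes above, 9 of 43 superfamily genes passed, which is 20.9%, beside 10.4% of all genes. With genes below background on both surfaces left out, 2660 of 13229 genes passed. In that setting 3 of the 8 genes were lower, and of 27 others 5 were lower and 2 higher.

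Cd40 encodes the receptor through which T cells activate macrophages and B cells. Its signals were 5.43, 5.47 and 5.12 on modified PEEK, against 6.34, 6.50 and 6.30 on pristine PEEK, with no overlap. It fell by 1.04 ± 0.12 (SE), a 2.06-fold lower signal (limma adjusted p = 0.00134), and the call held under all 19 alternatives. Cd40lg, the gene of its ligand, which is a T cell product, lay below background on both surfaces.

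Tnfrsf26, Tnfrsf22 and Tnfrsf23 lie next to each other in the RefSeq gene table of assembly GRCm38.p6, and in mouse the products of Tnfrsf22 and Tnfrsf23 are known as TRAIL decoy receptors. Tnfrsf26 gave 8.13, 8.14 and 7.79 on modified PEEK, against 9.43, 9.21 and 9.34 on pristine PEEK, and fell by 1.31 ± 0.13 (SE; limma adjusted p = 0.000549). This was the largest change among the 43 superfamily genes. Tnfrsf23 averaged 7.65 ± 0.13 on modified PEEK and 8.47 ± 0.04 on pristine PEEK (SD, n = 3 each) and fell by 0.83, with an adjusted p of 0.00159 by limma. Tnfrsf22, named here after its values were seen, averaged 7.003 ± 0.12 and 7.30 ± 0.02, in the same order, and did not pass (-0.30, limma adjusted p = 0.108). Its groups did not overlap, as for 28.8% of all genes. It passed as lower with the lowest 50% of genes left out and with an intensity trend, robust or not. These 3 genes are similar in sequence, so a probe set of one may take up signal of another, which was not tested.

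Eda2r, the gene of the ectodysplasin A2 receptor, gave 4.23, 4.56 and 4.46 on modified PEEK, against 5.55, 5.43 and 5.36 on pristine PEEK. It fell by 1.03 ± 0.12 (SE), which is 2.04-fold lower (limma adjusted p = 0.00111). Tnfsf9 encodes the 4-1BB ligand, a costimulatory ligand, and averaged 7.21 ± 0.25 on modified PEEK and 7.84 ± 0.04 on pristine PEEK (SD, n = 3 each; -0.63, adjusted p = 0.0189). Its call was lost without modified PEEK replicate 3 or pristine PEEK replicate 1, 2 or 3 (highest adjusted p 0.0770). The ordinary t statistic also ended it (0.0936). Tnfrsf17 encodes BCMA, a receptor of BAFF and APRIL known from plasma cells. It gave 4.16, 4.10 and 4.05 on modified PEEK, against 3.57, 3.42 and 3.27 on pristine PEEK. The pristine PEEK mean lies below background, so the signal was at least 1.30-fold higher on modified PEEK (limma adjusted p = 0.00518).

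Some superfamily genes were looked at for their place beside those above, after their values were seen. Lta and Ltb encode the lymphotoxins and are the protein-coding neighbours of Tnf in the RefSeq table. Lta averaged 6.07 ± 0.39 on modified PEEK and 6.08 ± 0.09 on pristine PEEK (SD, n = 3 each), and Ltb 5.93 ± 0.19 and 5.98 ± 0.17, in the same order. The 95% interval of the difference was -0.43 to 0.41 for Lta and -0.34 to 0.26 for Ltb. Their receptor gene Ltbr did not pass (-0.25; limma adjusted p = 0.250). Tnfrsf11a, the gene of the osteoclast receptor RANK, gave 7.60, 7.66 and 7.45 on modified PEEK, against 7.16, 7.28 and 7.18 on pristine PEEK. The groups did not overlap, and the difference of 0.36 lay just outside the threshold (adjusted p = 0.0554).

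**Figure D2:**
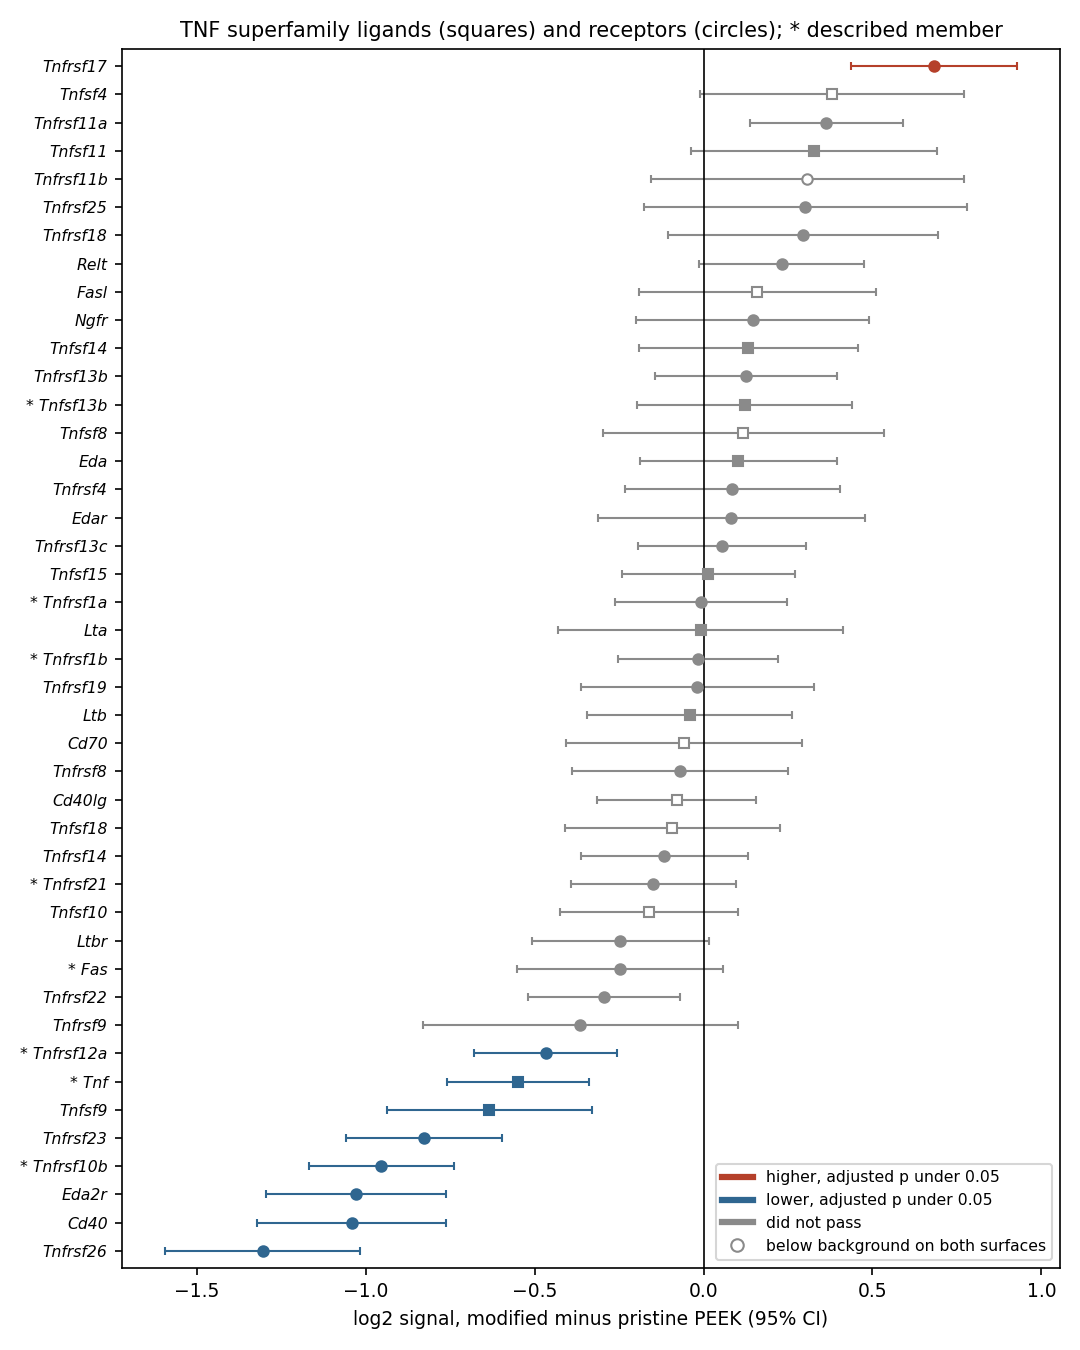
Change in log2 signal, modified minus pristine PEEK (x axis), of the 43 measured TNF superfamily genes in order of change, with 95% confidence intervals; squares are ligands, circles receptors, asterisks the 8 genes of the main list and open symbols genes below background on both surfaces. Blue marks the 8 genes that fell, from Tnfrsf26 to Tnfrsf12a, red the 1 that rose, Tnfrsf17, and grey the 34 that did not pass.

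Tnf is made as a membrane protein, cut by the protease ADAM17, and its mRNA is short-lived. In a list of 18 genes of Tnf processing and mRNA control, all measured, 4 fell and 2 rose by limma (4 lower and 4 higher at an unadjusted p under 0.05), with a median change of -0.02. That is 33.3% of the list, beside 10.4% of all genes. With genes below background on both surfaces left out, 2660 of 13229 genes passed, and the list again had 4 lower and 2 higher. Rhbdf2, encoding iRhom2, which brings ADAM17 to the surface of macrophages, gave 7.72, 7.67 and 7.57 on modified PEEK, against 8.62, 8.53 and 8.46 on pristine PEEK. It fell by 0.89 ± 0.10 (SE), a 1.85-fold lower signal (limma adjusted p = 0.000923), and kept its call under all 19 alternatives. Adam17 itself averaged 9.60 ± 0.08 on modified PEEK and 9.67 ± 0.01 on pristine PEEK (SD, n = 3 each) and did not pass (adjusted p = 0.717).

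Within this list, the genes named for mRNA control had these values. Zfp36, encoding tristetraprolin, which binds the Tnf mRNA, fell by 0.44 (limma adjusted p = 0.0390), and Zc3h12a, encoding the RNase regnase-1, by 0.57 (0.00455). Zfp36l1 rose by 0.85 ± 0.14 (SE), with 8.53, 8.27 and 8.13 on modified PEEK against 7.57, 7.57 and 7.25 on pristine PEEK (adjusted p = 0.00670). Zfp36l2, of the same zinc finger family, rose by 0.34 (adjusted p = 0.0479). Litaf, the gene of a protein first described as a regulator of TNF transcription, fell by 0.48 (adjusted p = 0.0228). Rc3h1 (-0.08) and Khsrp (0.18), which also encode proteins that destabilise mRNAs and are named here after their values were seen, did not pass. Sppl2a, which encodes a protease that cleaves the membrane stub of TNF, did not pass (-0.11). The calls for Zfp36 and Litaf were each kept in 1 of the 6 fits without 1 array, and that for Zfp36l2 in 0 (adjusted p up to 0.131, 0.0891 and 0.163). With the ordinary t statistic, the calls for Zfp36l1 (adjusted p = 0.0630), Zfp36 (0.0906) and Litaf (0.0609) were lost.

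Inside the cell, TNF receptors build complexes of adaptors, kinases and ubiquitin enzymes. Of 31 listed genes of these complexes 28 were measured, and 6 fell and 0 rose by limma (8 lower and 2 higher at an unadjusted p under 0.05), with a median change of -0.06. The genes that passed made up 21.4% of the list, beside 10.4% of all genes. All 28 lay above background. With genes below background on both surfaces left out, 2660 of 13229 genes passed, and of the 28 genes 6 were lower and 1 higher. Traf1, an adaptor gene, gave 6.14, 5.68 and 6.19 on modified PEEK, against 6.75, 6.75 and 6.67 on pristine PEEK (1.64-fold lower, adjusted p = 0.0158 by limma). Ikbkg, which encodes the NEMO subunit of the IkB kinase, fell by 0.71 (adjusted p = 0.0233). Map3k5, encoding the stress kinase ASK1, fell by 0.58 (0.0147), and Tnip1, a partner of the A20 brake, by 0.51 (0.0139).

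Rnf31, encoding the catalytic subunit of the linear ubiquitin complex, fell by 0.52 (limma adjusted p = 0.0367), and Tab2, a TAK1 adaptor gene, by 0.37 (0.0306). Birc3, a ubiquitin ligase gene of the complex (10.03 ± 0.06 on modified PEEK and 9.91 ± 0.08 on pristine PEEK; SD, n = 3 each), and Tank (-0.25) did not pass. Calls in this list were lost when 1 array was left out: 4 genes were lower without modified PEEK replicate 1, 2 or 3. Without pristine PEEK replicate 1 there were 2, without replicate 2 there was 1 and without replicate 3 there were 0. With the arrays scaled to the poly-A spikes, 0 were lower. The change of Traf1 stayed between -0.81 and -0.55 without 1 array. Over all genes the count passing also dropped, to between 1142 and 1241 without a pristine PEEK array, against 2027. The calls for Rnf31 and Tab2 were lost without any 1 of the 6 arrays.

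The death branch downstream was measured by 14 of 17 listed genes, of which 1 fell and 0 rose (limma; 2 lower and 1 higher at an unadjusted p under 0.05), with a median change of -0.07. This share was 7.14%, beside 10.4% of all genes. With genes below background on both surfaces left out, 2660 of 13229 genes passed, and of the 14 genes 2 were lower and 1 higher. Mlkl encodes the pore-forming protein of necroptosis, and gave 7.54, 7.33 and 7.26 on modified PEEK, against 8.18, 8.12 and 8.16 on pristine PEEK. It fell by 0.78 ± 0.10 (SE), a 1.71-fold lower signal (adjusted p = 0.00241). Casp8, the gene of the initiating caspase of death receptors, differed by -0.06 (95% interval -0.26 to 0.13). Cycs, the cytochrome c gene, did not pass either.

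**Figure D3:**
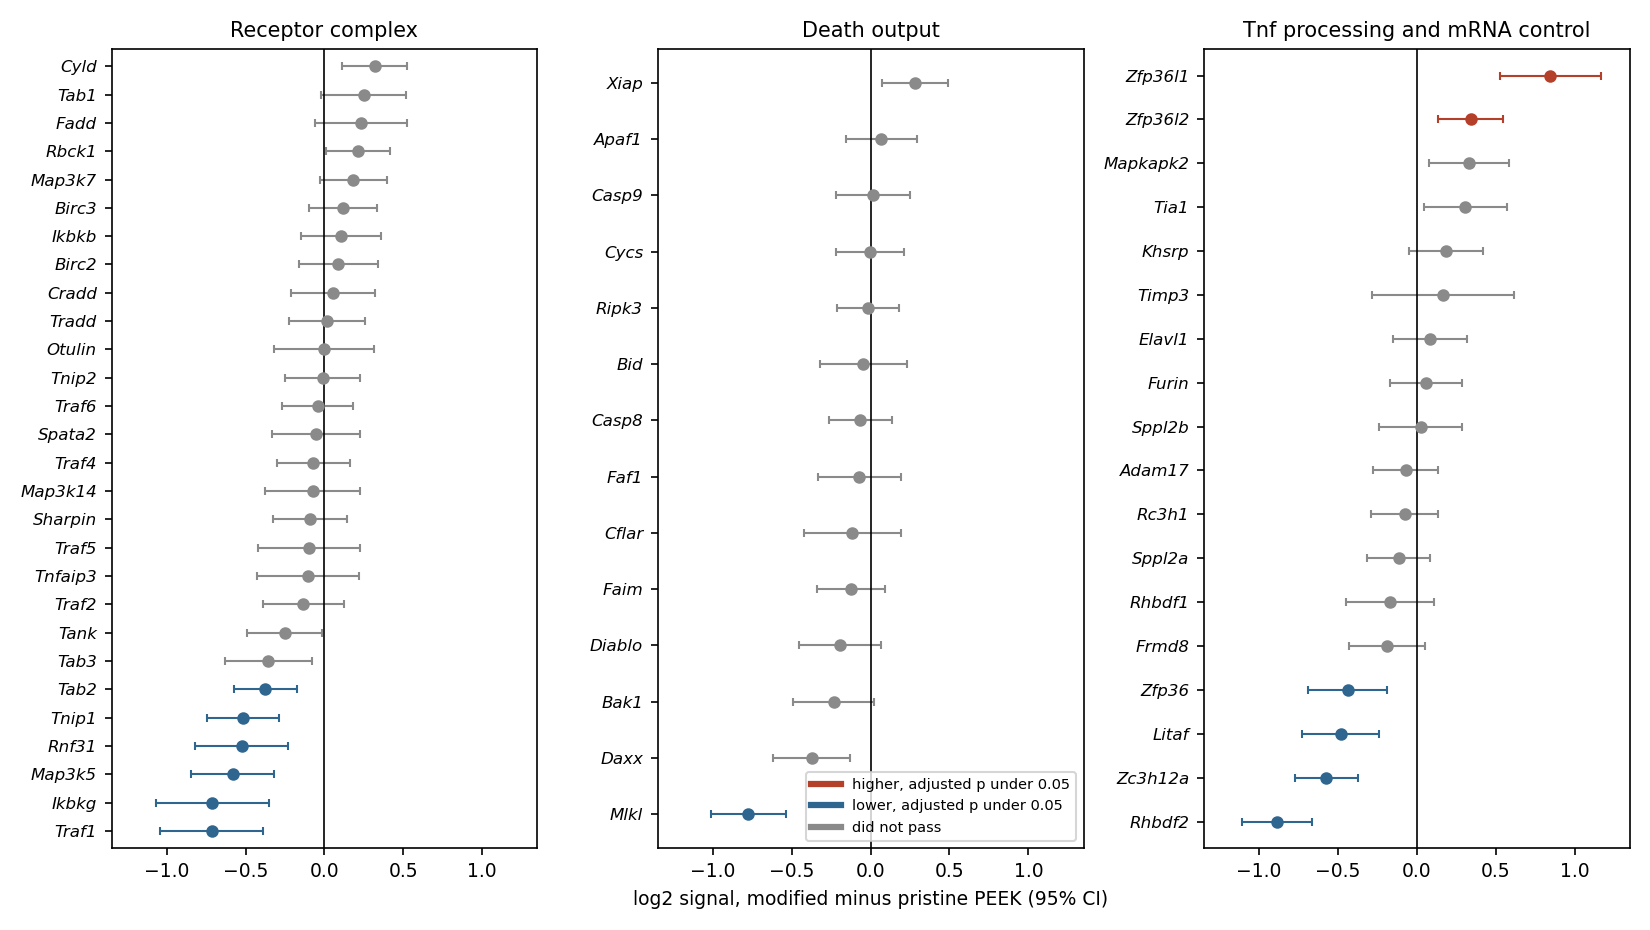
Change in log2 signal, modified minus pristine PEEK (x axis), with 95% confidence intervals, of the genes of the receptor complex (left), the death output (middle) and the processing and mRNA control of Tnf (right). Blue genes fell (6, 1 and 4 in these panels), red genes rose (0, 0 and 2) and grey genes did not pass.

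The genes most like Tnf over the 6 arrays, among 12108 others above background on every array, were Myc (Pearson r = 0.999), Stx11 (0.998) and Trappc4 (0.998). With 2 groups of 3 arrays such a correlation mostly repeats the difference between surfaces, and it is given as a description. Myc averaged 4.95 ± 0.14 on modified PEEK and 6.44 ± 0.23 on pristine PEEK. Stx11 averaged 3.94 ± 0.06 and 4.96 ± 0.17, and Trappc4 6.98 ± 0.04 and 7.71 ± 0.14, in the same order (SD, n = 3 each).

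Genes are no independent replicates, but over them the correlation was 0.985 to 0.988 for arrays of different surfaces and at least 0.991 for arrays of one surface. Poly-A spike probe sets averaged 6.71 ± 0.14 on modified PEEK and 6.96 ± 0.15 on pristine PEEK (SD, n = 3 each; p = 0.2 in an exact two-sided permutation test that cannot go below 0.1). The hybridisation spike probe sets averaged 9.14 ± 0.11 and 9.31 ± 0.08, in the same order (p = 0.2 in the same permutation test). The part of either spike difference in the results above was not tested. Outside the main list, the poly-A scaling also ended the calls of Tnfrsf23 (limma adjusted p = 0.0605), Tnfsf9 (0.149), Mlkl (0.0648), Zc3h12a (0.201), Litaf (0.321) and Zfp36 (0.461). Scaled to the poly-A spikes, Tnfrsf10b was the 1 gene of the main list that passed (-0.71, limma adjusted p = 0.0217). Relative to the median of all genes, the 8 changes ran from -0.96 for Tnfrsf10b to 0.11 for Tnfsf13b. These distances are the same with and without the scaling, which shifts all genes equally, so they do not test the changes against the spikes.

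**Figure D4:**
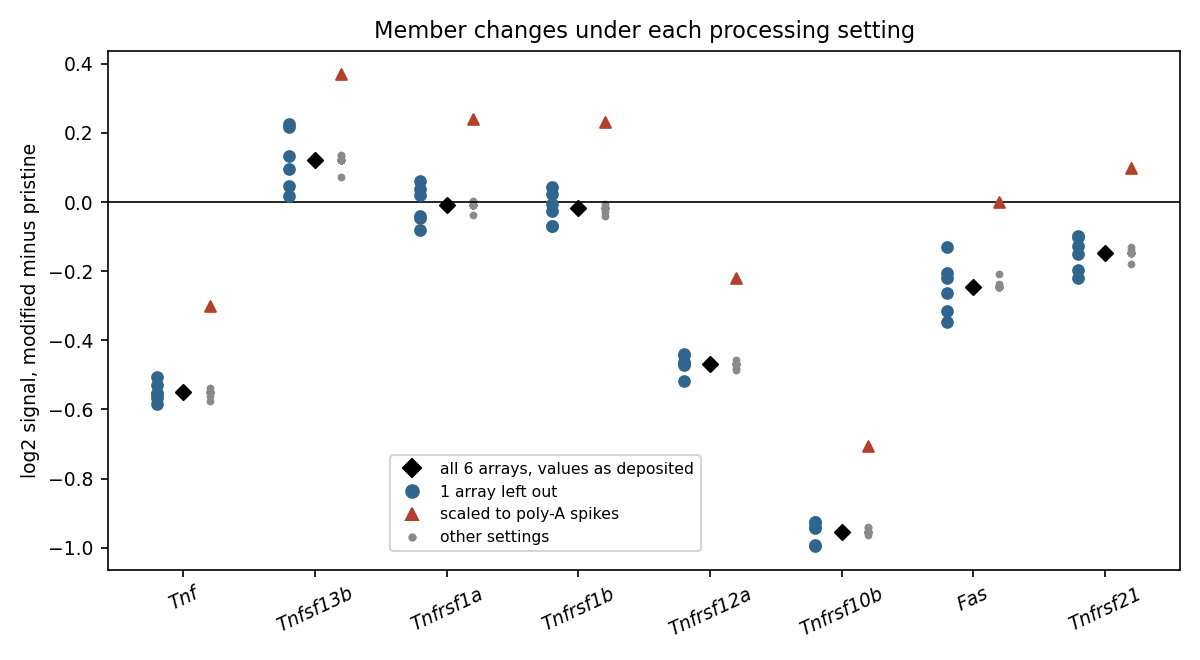
Change in log2 signal, modified minus pristine PEEK (y axis), of the 8 TNF family genes with all arrays as deposited (black diamonds), with 1 array left out (blue circles), scaled to the poly-A spikes (red triangles) and under the other settings (grey points). Tnf, Tnfrsf12a and Tnfrsf10b lie below 0 under each setting, while Tnfrsf1a and Tnfrsf1b lie on both sides of it. Tnfrsf21 and Fas lie above 0 with the poly-A scaling only.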

How the data were processed

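RAW264.7 cells were grown for 3 days on modified or pristine PEEK, and 250 ng of total RNA per array was labelled with biotin as cDNA for Affymetrix arrays, per the labels' protocols. The authors deposited 1 log2 signal for each probe set and array. The submitters' processing notes name RMA, which corrects background, equalises the arrays' distributions and summarises probes, without a version. No source states the scale; log2 was read from the range of 0.941 to 12.4. Equalised distributions would hide a change in total RNA per cell. No genome build is named for the probes.

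Of 29129 features, 6923 were array controls and 19572 named 1 gene each; for 55 genes with several probe sets, the brightest on average was taken. The test was limma 3.58.1 under R 4.3.3 (lmFit, eBayes, no trend, two-sided, 4 residual and 4.09 prior degrees of freedom), without covariates or a filter on dim probe sets. No batch is named in the labels. The number of arrays limits the precision. The script was tested on simulated data.

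The genes, lists, tests and alternatives were chosen with earlier results of these data known. Named were all members, other superfamily genes that passed, up to 6 passing and 2 bright non-passing genes of each other list, and the 3 genes most like Tnf; Tnfrsf13b, Tnfrsf13c, Tnfsf10, Fasl and Cd40lg, and the genes marked so in the text, were added after their values were seen. The 19 alternatives changed the scaling, filters, probe set rule, variance model, pairing and arrays used.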

Additional observations from a re-analysis of the deposited data

How the results depend on the processing

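Counts and calls were recomputed under 19 alternatives. Of the main list, 0 genes were higher under each of them, and 3 were lower except with the replicate block (2; Tnfrsf12a lost), with the poly-A scaling (1) and in 4 of the fits without 1 array (range 2 to 3). Whether the shared replicate numbers pair the samples is not known. Correlations of the deviations of same-numbered arrays were -0.17, -0.16 and 0.07, and those of differently numbered arrays ran from -0.07 to 0.22. Deviations within a group of 3 arrays sum to 0, so these correlations depend on each other and cannot decide it. The block left 2 receptor complex genes lower, 1 processing gene higher and 2 lower, against 6, 2 and 4 without it.

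Scaled to the poly-A spikes, 2 other superfamily genes were higher (Tnfrsf11a added) and 3 lower, 1 receptor complex gene (Cyld) was higher and 0 lower, 0 death output genes were lower and 1 processing gene was lower. That scaling also turned the signs of Tnfrsf1a (0.24), Tnfrsf1b (0.23), Tnfrsf21 (0.10), Fas (0.00013), Cycs (0.24), Casp8 (0.18), Sppl2a (0.13) and Adam17 (0.18), none of which passed. Signs also turned for Tnfrsf1a centred on medians (0.0026) and without modified PEEK replicate 2 (0.019), 3 (0.037) or pristine PEEK replicate 2 (0.062), over a range of -0.081 to 0.062 without 1 array. They turned for Tnfrsf1b without modified PEEK replicate 2 (0.023) or pristine PEEK replicate 3 (0.042; range -0.069 to 0.042), and for Cycs centred on medians (0.0066), with array weights (0.013) and without modified PEEK replicate 1 (0.032) or pristine PEEK replicate 3 (0.034; range -0.041 to 0.034).

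With the lowest 25% of genes left out, genes below background left out, or an intensity trend (robust or not), 2 other superfamily genes were higher. Cyld made 1 receptor complex gene higher with the lowest 25% or 50% left out, the background filter, the trend without robust fitting, and the ordinary t statistic. For death output, 1 gene was higher with the lowest 50% left out, the background filter and both trends, and 2 were lower in these settings and with quantile normalization again, the lowest 25% left out and array weights. The ordinary t statistic left 2 receptor complex genes lower, and 1 processing gene higher and 2 lower. Processing genes higher numbered 1 with median centring and 4 with the lowest 50% left out. Without 1 array, counts ran from 4 to 5 for other superfamily genes lower, 0 to 4 for receptor complex genes lower, 1 to 2 for death output lower, 1 to 2 for processing higher and 2 to 4 for processing lower. Over all genes, the count passing was 1142 to 1863 without 1 array, 1268 with the block and 3305 with the trend, against 2027. Fewer arrays or fewer genes tested are part of the leave-one-out and filter settings by construction, and for the other changes the cause was not tested. Levels near 3.72 are limited by background.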
